A study of Arabidopsis thaliana with 6 samples.

Results

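The mitochondrial genome of Arabidopsis thaliana encodes core subunits of the respiratory chain and a few proteins that build it. Genes of this genome were followed in petioles, the leaf stalks, of plants grown in a dense canopy and of plants grown singly. A gene was taken as mitochondrially encoded when its probe set was listed with 1 gene and that gene lay on the mitochondrial chromosome of RefSeq or, where its gene number had no RefSeq match, had a platform symbol of the mitochondrial naming (nad, cox, cob, ccb, matR, mttB, orf, or atp1, atp6 and atp9). This gave 16 of the 13356 genes that have a probe set of their own in the annotation used here, each represented by the probe set with the highest mean. No gene was found by number. By symbol, all 16 matched a mitochondrial protein-coding gene of the RefSeq table, 11 by the current symbol and 5 by an older one. RefSeq lists 32 such symbols in all.

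The canopy group comprised 3 arrays of plants set at 2066 plants per m2, and the single group 3 arrays of plants kept apart. All plants were placed in individual pots after 10 days, under 9 h of light and 15 h of darkness at 20°C, and were sampled about 23 days after sowing, when canopies had 0.9 units of leaf area over each unit of ground. Each array held a pool of 2 young petioles from each of 4 plants. The labels give no genotype or accession of the plants, and no treatment other than plant density. Canopy replicate 1 stood apart from the other arrays, lying at 22.6 on the second principal component, which held 20.6% of the variance, while the others lay at -15.9 to 4.17.

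Plant mitochondria make ATP by passing electrons from NADH and other donors through complexes I to IV to oxygen, with complex V as the ATP synthase. The mitochondrial genome encodes only some subunits of complexes I, III, IV and V, and the nucleus encodes the others, so each complex is assembled from the products of 2 genomes. Transcripts of the organelle are trimmed, spliced and edited by nuclear-encoded proteins. Poly(A) tails mark mitochondrial RNA for decay in plants, and most mature mitochondrial transcripts carry none. The labelling kit named in the labels primes from poly(A), so the values below come from RNA molecules that could be primed in this way and are not a measure of all mitochondrial RNA. In pooled tissue, fewer mitochondria or cells and less RNA in each cannot be told apart.

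In the canopy petioles, no mitochondrially encoded gene passed the test. Of the 16 genes, 0 rose, 0 fell and 16 did not pass (limma, Benjamini-Hochberg adjusted p under 0.05 over all 22746 probe sets), against 0.677% of all probe sets called, 0.426% of all being higher and 0.251% lower in the canopy. At an unadjusted p under 0.05 stood 4 of the 16, against 12.2% of all probe sets. Of these, ccb382 and cox1 had lower means in the canopy, and cox2 and ccb452 higher means, against 7.11% of all probe sets on the lower and 5.13% on the higher side. The median difference was -0.0099 over the 16 genes and -0.0030 over all probe sets (canopy minus single, log2), with 8 genes above 0 and 8 below. These p-values measure the spread between pools of plants.

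**Figure D1:**
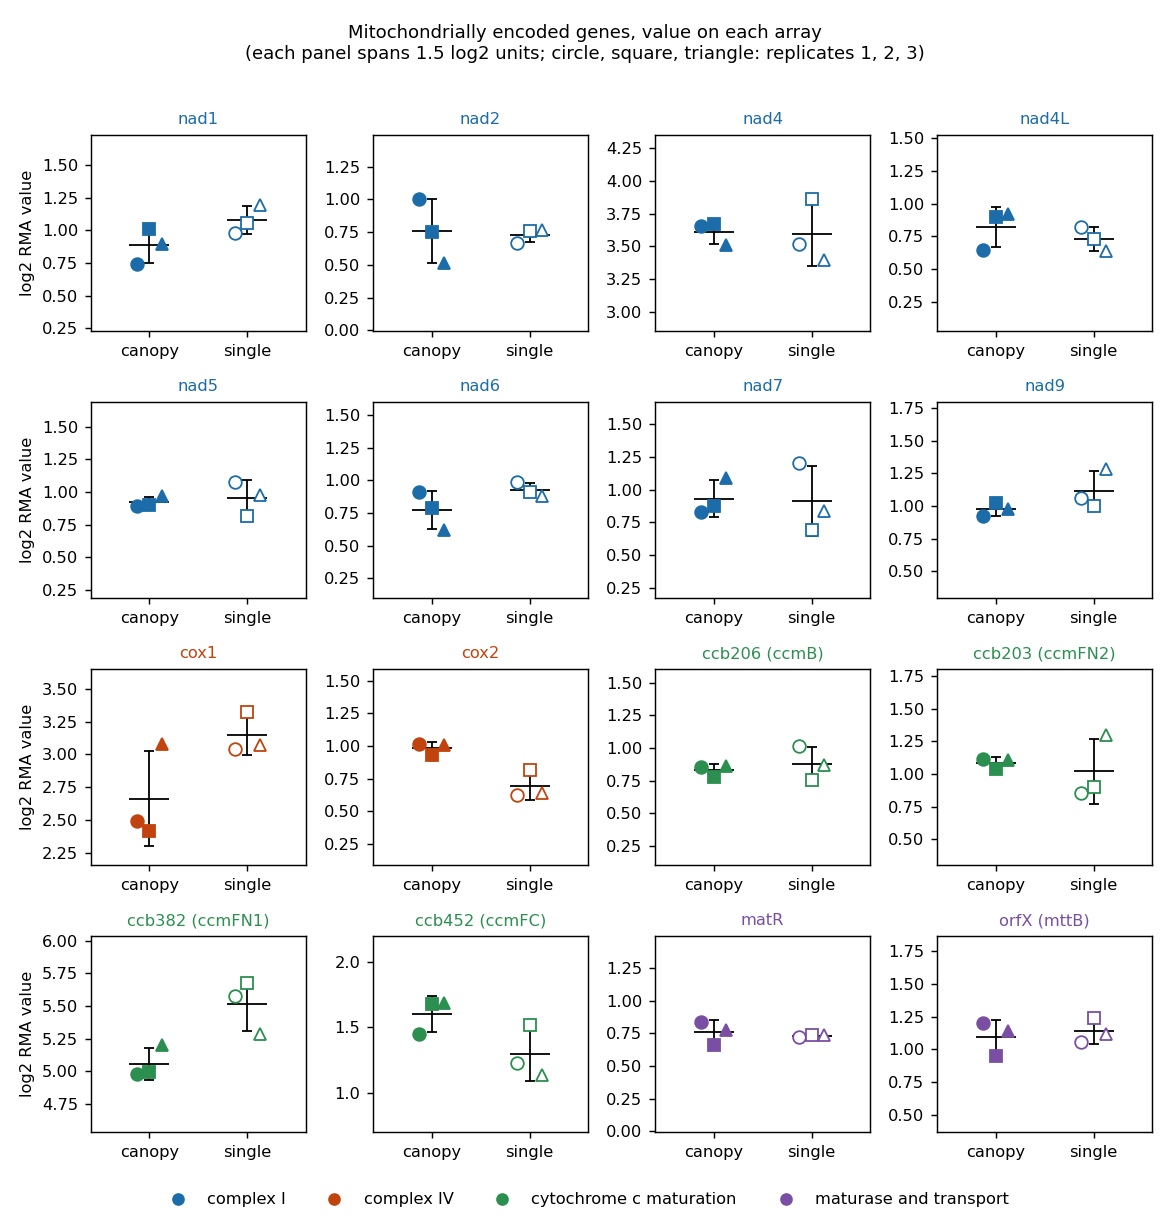
Deposited log2 RMA value of each of the 16 mitochondrially encoded genes on each array, canopy (filled) left of single (open), with horizontal marks for group means and bars for SD (n = 3 per group). Every panel spans the same height on its own level. The groups do not overlap for ccb382 and cox2, 2 of the 16 genes, against 17.0% of all probe sets. They overlap for the other 14 genes.

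The values are RMA expression values, read as log2, whose zero point is unknown. The median of the probe sets' means was 1.29 and their lower quartile 0.870. Of the 16 genes, 12 lay below that median and 6 below the lower quartile. Only ccb382, nad4 and cox1 had a mean above 2. The other 13 had means of 0.74 to 1.45. For comparison, the 3 probe sets of the bacterial trp control read 0.54 to 0.96 on the 6 arrays. Values of different probe sets cannot be ordered as transcript levels. Of all 154 probe sets called, 0 had a mean at or below the lower quartile, so a missing call there does not show equal levels. The smallest difference among all called probe sets was 0.50 in size (log2).

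**Figure D2:**
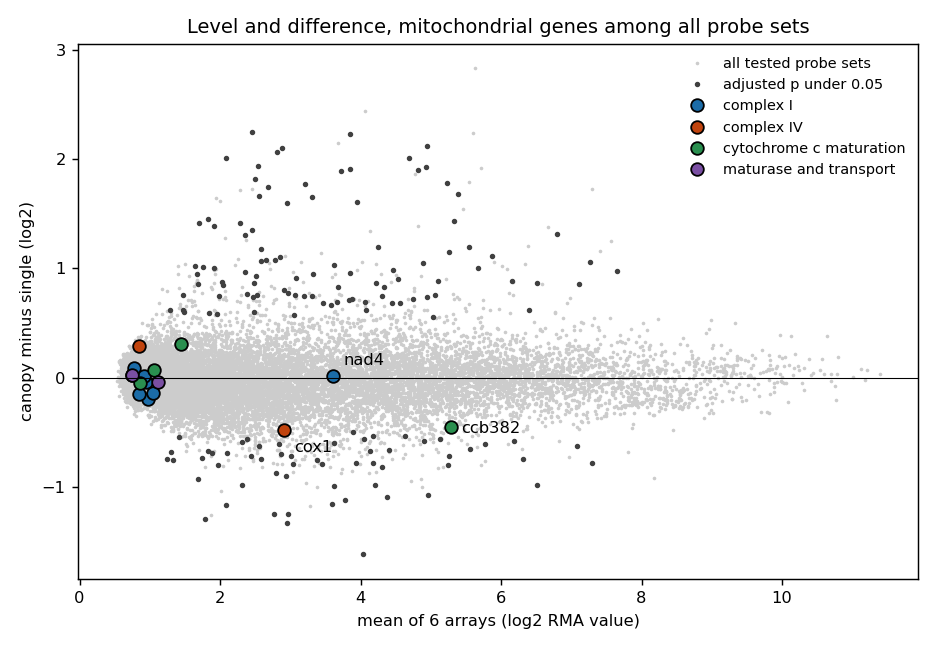
Canopy minus single difference (log2) against the mean of the 6 arrays (log2 RMA value) for all tested probe sets (pale points), those with an adjusted p under 0.05 (dark points) and the 16 mitochondrial genes (coloured by class). The genes ccb382, nad4 and cox1 have means above 2, the other 13 lie between 0.74 and 1.45, and 0 of the 16 have an adjusted p under 0.05.

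Complex I, the NADH dehydrogenase that feeds electrons into the chain, had 8 mitochondrially encoded subunits among the genes measured. None passed, also at an unadjusted p under 0.05 (limma), and their median difference was -0.0099 (log2). The core membrane subunit nad4 read 3.66, 3.68 and 3.51 in the canopy, against 3.52, 3.87 and 3.39 in single plants. The single-plant arrays spread more widely than the canopy arrays and enclosed them. The difference was 0.02 ± 0.13 (log2, SE, n = 3 per group; limma adjusted p = 0.977), with a 95% interval of -0.27 to 0.31. On a linear scale that interval spans ratios of 0.827 to 1.24.

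The smallest p of complex I belonged to nad1, a membrane subunit whose mRNA is put together by trans-splicing. Its chosen probe set read 0.74, 1.01 and 0.90 in the canopy, against 0.98, 1.05 and 1.19 in single plants. Canopy replicate 2 lay between the single-plant values, so the groups overlapped. The difference was -0.19 ± 0.10 (log2, SE; limma adjusted p = 0.525). Across the 7 probe sets listed with nad1 alone, the difference ran from -0.19 to 0.14, with 2 above 0 and 5 below, and 0 had an unadjusted p under 0.05. These 7 probe sets all had means of 0.84 to 0.98, near the bottom of the scale.

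The other complex I genes gave no called difference either. The membrane subunit nad5, likewise made by trans-splicing, differed by -0.04 ± 0.10 on the chosen probe set, and its second probe set differed by 0.03 (log2). The membrane subunit nad2, also trans-spliced, differed by 0.03 ± 0.13, and its canopy arrays ranged from 0.51 to 1.00 while its single-plant arrays lay between 0.67 and 0.77. The small membrane subunit nad4L differed by 0.09 ± 0.11, nad6 by -0.15 ± 0.10, and nad7 and nad9, subunits of the arm outside the membrane, by 0.02 ± 0.14 and -0.14 ± 0.10. Over the 12 genes with an unadjusted p of 0.05 or more, in all classes, the differences ran from -0.19 to 0.09 and the 95% intervals from -0.43 to 0.35 (log2). Their limma adjusted p lay between 0.525 and 0.981.

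Complex IV, the cytochrome c oxidase that reduces oxygen, was represented by its catalytic subunits cox1 and cox2, whose means differed in opposite directions. The heme-bearing subunit cox1 read 2.49, 2.42 and 3.08 in the canopy, against 3.04, 3.32 and 3.07 in single plants. Canopy replicates 1 and 2 lay below every single-plant array, and canopy replicate 3 lay at the single-plant level. The difference was -0.48 ± 0.17 (log2, SE, n = 3 per group), a 1.40-fold lower mean, with a limma adjusted p of 0.295. The spread of cox1 within groups, 0.278, was larger than that of 93.3% of all probe sets. With 1 array left out, the difference ran from -0.69 (without canopy replicate 3; limma adjusted p = 0.0607) to -0.36 (without canopy replicate 2; limma adjusted p = 0.541), and the adjusted p reached 0.574 without single replicate 2.

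The copper-bearing subunit cox2, which takes electrons from cytochrome c, read 1.01, 0.93 and 1.01 in the canopy, against 0.63, 0.82 and 0.64 in single plants. All canopy arrays lay above all single-plant arrays. Groups did not overlap in 17.0% of all probe sets, 7.71% with the canopy higher and 9.3% with it lower. The difference was 0.29 ± 0.09 (log2, SE; limma adjusted p = 0.241). All of these readings fell near those of the trp control, and the mean of 0.84 was below the lower quartile of all probe sets.

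The cytochrome c maturation proteins attach heme to cytochromes c, which include cytochrome c1 of complex III. The genes ccb382 and ccb203, named ccmFN1 and ccmFN2 in RefSeq, encode separate parts of a protein that is a single chain in most other plants. The gene ccb382 read 4.98, 4.99 and 5.20 in the canopy, against 5.58, 5.68 and 5.29 in single plants. All 3 canopy arrays lay below all single-plant arrays, with canopy replicate 3 and single replicate 3 closest to each other. Such a separation, with the canopy lower, was seen in 9.3% of all probe sets. The difference was -0.46 ± 0.12 (log2, SE, n = 3 per group), a 1.37-fold lower mean, with a 95% interval of -0.73 to -0.18 and a limma adjusted p of 0.156. It was the smallest p of the 16 genes, and it was 0.00499 before adjustment. The adjusted p stayed between 0.123 and 0.398 over all alternative fits.

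Its partner ccb203 read 1.12, 1.04 and 1.11 in the canopy, against 0.85, 0.90 and 1.30 in single plants, and differed by 0.07 ± 0.13 (log2, SE; limma adjusted p = 0.898). The third heme-ligase part, ccb452 (ccmFC), read 1.45, 1.67 and 1.69 in the canopy, against 1.23, 1.52 and 1.13 in single plants. Canopy replicate 1 lay below single replicate 2, so the groups overlapped. The difference was 0.31 ± 0.12 (log2, SE; limma adjusted p = 0.357), a 1.24-fold higher mean. The transporter part ccb206 (ccmB) differed by -0.05 ± 0.10 (log2, SE; limma adjusted p = 0.901). Of the 4 maturation genes, 2 had differences above 0 and 2 below.

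The remaining genes encode a splicing factor and a transport protein. The maturase matR, which acts in the splicing of mitochondrial introns, differed by 0.03 ± 0.09 (log2, SE; limma adjusted p = 0.948). The gene listed as orfX, named mttB in RefSeq, encodes a subunit of the twin-arginine protein translocase. It read 1.20, 0.95 and 1.14 in the canopy, against 1.06, 1.24 and 1.12 in single plants, and differed by -0.04 ± 0.10 (limma adjusted p = 0.925). The probe sets of ccb452, matR, orfX and nad6 and that chosen for nad5 are of the type that can bind several related transcripts.

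**Figure D3:**
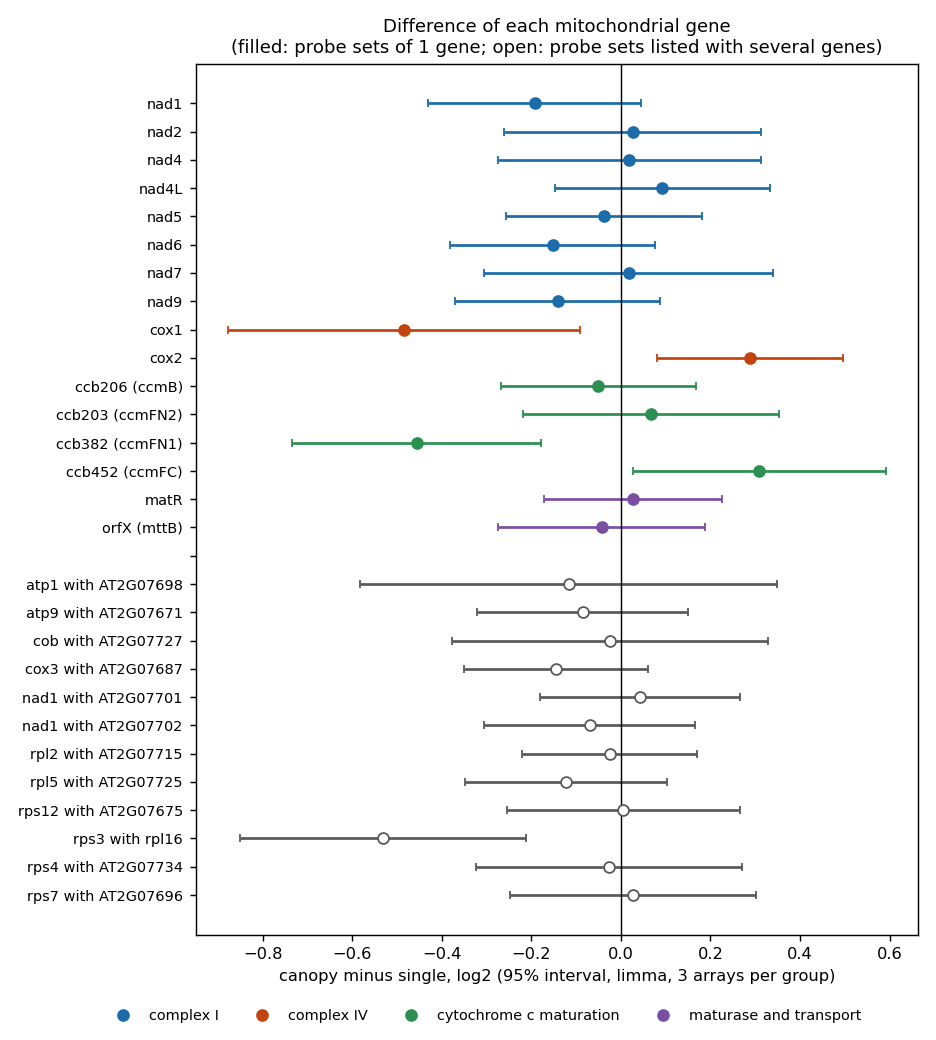
Canopy minus single difference (log2) with 95% intervals from limma (3 arrays per group) for the 16 mitochondrial genes (filled, coloured by class) and for 12 probe sets listed with a mitochondrial and at least 1 more gene (open). The intervals of cox1, cox2, ccb382 and ccb452 leave out 0 before adjustment, as does that of the probe set shared by rps3 and rpl16, and none passed after it.

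Genes of complexes III and V and the ribosome were reached only through shared probe sets. Of all 12 shared probe sets, 11 are listed with a mitochondrial gene and a gene of nuclear chromosome 2, which carries a large insertion of mitochondrial DNA in this species. They cannot tell the organelle's transcript from one of the nuclear copy. The cytochrome b gene cob of complex III differed by -0.02 ± 0.16, and the ATP synthase genes atp1 and atp9 by -0.12 ± 0.20 and -0.09 ± 0.10 (log2, SE). The complex IV gene cox3 read 0.85, 0.65 and 0.80 in the canopy, against 0.87, 0.95 and 0.92 in single plants (limma adjusted p = 0.601). Its groups did not overlap, as in 17.0% of all probe sets, and its readings were near those of the trp control. The ribosomal protein genes rpl2, rpl5, rps4, rps7 and rps12 had limma adjusted p of 0.705 to 0.993. The complex I gene nad1 also had shared probe sets, which differed by 0.04 ± 0.10 (with AT2G07701) and -0.07 ± 0.10 (with AT2G07702; log2, SE).

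The probe set shared by rps3 and rpl16, both mitochondrial ribosomal protein genes and neighbours in the genome, stood out among these. It read 1.84, 1.62 and 1.57 in the canopy, against 1.92, 2.27 and 2.43 in single plants. The groups did not overlap, as in 17.0% of all probe sets, though canopy replicate 1 and single replicate 1 lay close together. The difference was -0.53 ± 0.14 (log2, SE, n = 3 per group; limma adjusted p = 0.15), the one unadjusted p under 0.05 among the 12. It was singled out after its values were seen. Over the alternative fits its limma adjusted p lay between 0.103 and 0.373.

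Neighbouring genes of the mitochondrial chromosome were set side by side. Among the 16 genes, 7 pairs are next to each other when the protein-coding genes are ordered by their RefSeq start. For the trans-spliced genes nad1, nad2 and nad5, 1 start need not place every part of the gene. The members of 2 pairs had differences of the same sign, nad1 with cox1 and ccb452 with nad4, and those of 5 pairs had opposite signs. The gene cox2 at 0.29, for example, neighbours ccb206 at -0.05 (log2). Most of these values are within the error of 0, so their signs are a description only.

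The 16 genes were also followed array by array. The median deviation from each gene's mean was -0.0031, -0.0288 and 0.0251 in the canopy, against 0.0092, 0.0037 and 0.0105 in single plants (log2). The number of genes above their own mean was 7, 6 and 10 of 16 in the canopy and 9, 8 and 9 in single plants. The spread within groups was 0.065 to 0.278 for the 16 genes, with a median of 0.124, against a median of 0.133 for all probe sets (log2, SD).

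**Figure D4:**
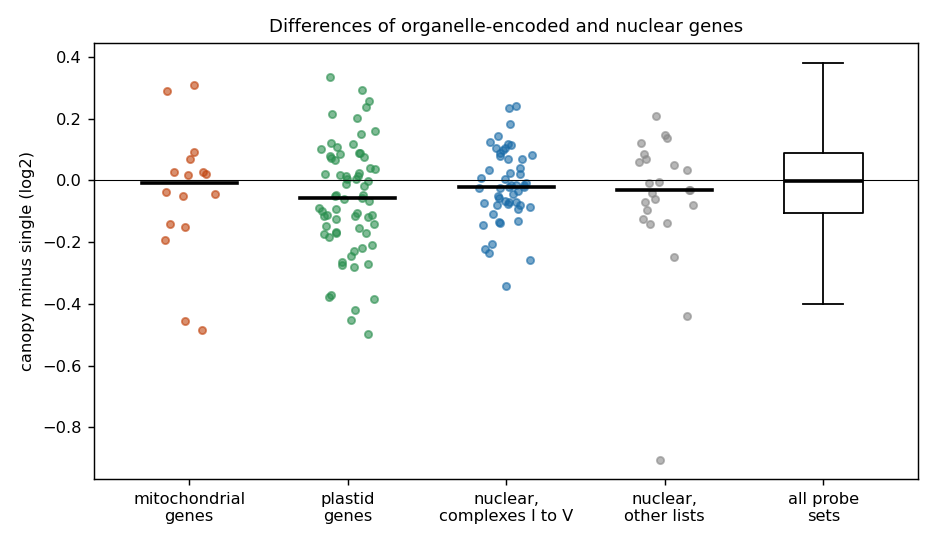
Canopy minus single differences (log2), 1 point per gene, for 16 mitochondrial genes, 69 plastid genes, 52 nuclear genes of complexes I to V and 24 genes of the other nuclear lists, with a bar at each median, and a box for all probe sets (quartiles, median, whiskers to 1.5 times the box length, points beyond not drawn). The medians of the lists lie between -0.057 and -0.0099, beside -0.0030 for all probe sets. PPR596 is the point at -0.90.

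The plastid is the other organelle with a genome of its own. Of 69 plastid-encoded genes with a probe set, 0 passed the limma test, 5 (7.25%) had an unadjusted p under 0.05, against 12.2% of all probe sets, and the median difference was -0.057 (log2). All 5 had lower canopy means, against 7.11% of all probe sets on that side. The medians of the mitochondrial and plastid genes were not tested against each other. The plastid genes covered means from 0.91 to 11.2.

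No nuclear gene for the same respiratory complexes passed the test. Of 93 listed genes for complexes I to V and cytochrome c, 52 had a probe set, and 0 rose, 0 fell and 52 did not pass (limma), with a median difference of -0.0225 (log2). Most of them gave readings well above the bottom of the scale, with a median mean of 6.34. Canopy and single-plant arrays did not overlap for 7 of the 52, against 17.0% of all probe sets. In complex I, 19 of 32 were measured. AT2G20360 of that list read 6.04, 5.86 and 5.95 in the canopy, against 6.25, 6.29 and 6.34 in single plants. These groups did not overlap, and the limma adjusted p was 0.143. AT5G11770 differed by 0.24 ± 0.12 (log2, SE; limma adjusted p = 0.484).

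In the other nuclear complexes, the 2 genes with the smallest p were as follows. In complex II, SDH2-2 and SDH2-1, alternative iron-sulfur subunits of succinate dehydrogenase, differed by -0.24 ± 0.12 and 0.07 ± 0.12 (log2, SE; 4 of 12 measured). For complex III and cytochrome c, AT5G40810 differed by -0.15 ± 0.09 (13 of 17 measured; limma adjusted p = 0.572). AT2G40765 of that list read 5.96, 6.10 and 5.89 in the canopy, against 6.24, 6.14 and 6.34 in single plants. Its groups did not overlap, as in 17.0% of all probe sets, and the difference was -0.26 ± 0.10 (log2, SE; limma adjusted p = 0.331). For complex IV, AT1G80230 differed by -0.21 ± 0.11 and AT5G61310 by 0.11 ± 0.11 (9 of 16 measured). For complex V, AT5G47030 differed by 0.11 ± 0.09 and AT1G51650 by 0.11 ± 0.10 (7 of 16 measured).

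Among nuclear genes that act on mitochondrial RNA, 1 of 9 measured genes fell, 0 rose and 8 did not pass (41 listed), against 0.677% of all probe sets called and 0.251% lower. The gene that fell was put in the list with its earlier result known, so nothing is read from this count. PPR596, a pentatricopeptide repeat protein linked to the editing of rps3 transcripts, read 2.67, 2.17 and 2.63 in the canopy, against 3.51, 3.18 and 3.50 in single plants. All canopy arrays lay below all single-plant arrays, as in 9.3% of all probe sets. The difference was -0.90 ± 0.15 (log2, SE, n = 3 per group; limma adjusted p = 0.0423), a 1.87-fold lower mean. The call was lost without canopy replicate 2 or 3 (limma adjusted p = 0.0882 and 0.0643), without single replicate 1, 2 or 3 (0.15, 0.0924 and 0.14) and after a repeated quantile normalization (0.0536). AT5G46920, of the same list, differed by -0.25 ± 0.11 (log2, SE; limma adjusted p = 0.415).

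The lists for transcription and DNA maintenance, protein import and maturation of cytochrome c held few measured genes, and 0 of these passed (limma). For transcription and DNA maintenance, 3 of 14 were measured, and AT1G31760 and the DNA-binding protein OSB1 differed by 0.15 ± 0.11 and -0.08 ± 0.12 (log2, SE). For import and cytochrome c maturation, 2 of 16 were measured. CCMH, a nuclear partner of the ccb genes, differed by 0.14 ± 0.09 and AT5G43680 by -0.06 ± 0.12 (log2, SE).

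Several control measures were compared between the groups. The gap between 3′ and 5′ probe sets of actin, which widens as RNA degrades, averaged 1.39 ± 0.11 in canopy arrays, against 1.64 ± 0.09 in single-plant arrays (SD of log2 values, n = 3 each; exact two-sided permutation p = 0.1). The groups did not overlap in this gap, and 0.1 is the smallest p the permutation test can give with 3 arrays per group. A second actin control gave 5.03 ± 0.12 in canopy arrays, against 5.35 ± 0.26 in single-plant arrays (exact two-sided permutation p = 0.2). Its groups overlapped. The 25S ribosomal RNA control, another RNA without a poly(A) tail, averaged 7.60 ± 0.13 in canopy arrays, against 7.60 ± 0.16 in single-plant arrays (exact two-sided permutation p = 1.0). The dap control averaged 3.39 ± 0.17 in canopy arrays, against 3.72 ± 0.09 in single-plant arrays, and the array median 1.289 ± 0.0066, against 1.310 ± 0.0084 in single-plant arrays, neither with overlapping groups (exact two-sided permutation p = 0.1 each). With all array medians set equal, ccb382 differed by -0.43 and cox1 by -0.46 (log2). Without canopy replicate 1, the array that stood apart on the second principal component, ccb382 differed by -0.42 and cox1 by -0.40 (log2). The part of RNA degradation or of the control RNA in the differences of ccb382 and cox1 was not tested.

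Of 52 marker genes of 6 tissue and cell classes, 8 had a probe set, and 0 passed (limma). The green-tissue genes PSBW and ATPC1 read 8.91 to 9.32 in the canopy and 8.88 to 9.14 in single plants. The guard cell gene FMA had a mean of 1.39, the pollen and root genes had means of 0.86 to 0.94, and no vascular gene was measured. The label petiole could therefore be checked only as green tissue. The groups of the root gene EXPA7 and the pollen gene AT5G45880 did not overlap, with differences of -0.17 and -0.16 (log2; limma adjusted p = 0.47 and 0.525). AUR1, a mitotic kinase, read 1.66, 1.40 and 1.504 in the canopy, against 2.09, 1.90 and 1.74 in single plants (limma adjusted p = 0.2). The groups of AUR1 did not overlap either, and such a separation was seen in 17.0% of all probe sets. The meristem gene CLV3 stood at a mean of 0.72. Whether dividing cells had a part in the differences of ccb382 and cox1 was not tested.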

How the data were processed

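Petiole RNA was hybridised to 6 Affymetrix arrays, 3 canopy and 3 single, grouped by title. The deposited values are log2 RMA expression values for 22810 probe sets, made with R 2.15.0 per the submitters' processing notes. The log2 scale was checked with the hybridisation controls (1.09 to 1.15 units per doubling of concentration). No source used here states the chip definition or genome build, so no coordinates are printed. Genes were named through the platform annotation and the RefSeq table of TAIR10.1. Of 22746 non-control probe sets, 13513 are listed with 1 gene, 503 with several and 8730 with none. All 22746 were fitted with limma 3.58.1 (R 4.3.3; lmFit and eBayes, two-sided, no filter, no block) and tested on simulated data. Calls used a Benjamini-Hochberg adjusted p under 0.05. The number of arrays limits the precision. Each of the 16 mitochondrial genes with a probe set of its own was named. For these genes, values on every array were given at an unadjusted p under 0.05 and for the smallest p of a class, and a nuclear list was described by its 2 smallest p. Members and lists (192 nuclear genes in 10 lists, 52 markers in 6) were chosen with earlier results of these data known. Same-numbered arrays deviated from their group means with correlations of 0.0024, 0.0989 and -0.064, so the numbers were not taken as pairs.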

Additional observations from a re-analysis of the deposited data

How the results depend on the processing

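The count of mitochondrial genes called was 0 as reported and under all 15 alternatives (limma); at an unadjusted p under 0.05 it was 4. Their median difference of -0.0099 was -0.0401 with the filter on low values, which left 10 genes, 0.0118 with equal array medians and -0.0321 with probe sets of several genes, for 26 genes. It ran from -0.0616 to 0.0084 when 1 array was left out. None of these medians was tested. The number of all probe sets called, 154, was 63 with the replicate block, 369 at an adjusted p under 0.1 and 17 to 159 with 1 array left out. Under the replicate block, 0 mitochondrial genes passed, their median stayed at -0.0099, and PPR596 had a limma adjusted p of 0.041. No pairing by replicate number was seen, as the own number was the best match for 2 of 6 arrays. So few arrays cannot exclude one. Under the 12 or 13 alternatives that gave a value for a gene, 8 of the 16 kept their sign, among them ccb382, cox1, cox2 and ccb452 (the filter left out 6 genes, cox2 among them). The sign of nad4 turned with array weights (-0.0239). With 1 array left out, it turned for nad4 (-0.081 to 0.1553), nad2 (-0.0974 to 0.1477), nad5 (-0.108 to 0.0229), nad7 (-0.0924 to 0.1646), ccb206 (-0.1132 to 0.0154), ccb203 (-0.0152 to 0.2092), matR (-0.0146 to 0.0762) and orfX (-0.0952 to 0.0318). The cause was not tested. The fits for PPR596 and for rps3 with rpl16 were added after seeing the data. Readings near the bottom of the scale limit what 13 of the 16 genes can show.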

Other observations

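Alternative respiration and the mitochondrial stress response were followed through nuclear genes. Of 14 genes for alternative oxidases, external and internal NAD(P)H dehydrogenases and uncoupling proteins, 5 had a probe set and 0 passed (limma). NDB2, an external NAD(P)H dehydrogenase, read 1.63, 2.01 and 1.52 in the canopy, against 1.34, 1.52 and 1.66 in single plants, and NDB1 differed by -0.07 ± 0.09 (log2, SE). Of 15 genes of the stress response, 5 had a probe set and 0 passed. The locus AT2G21640 read 1.84, 1.99 and 1.90 in the canopy, against 2.45, 2.33 and 2.26 in single plants. Its groups did not overlap, and such a separation with the canopy lower was seen in 9.3% of all probe sets. Its difference was -0.44 ± 0.09 (log2, SE, n = 3 per group; limma adjusted p = 0.0890). GSTU25, a glutathione transferase, differed by 0.09 ± 0.09.

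The stretch of chromosome 2 from AT2G07671 to AT2G07734 is bounded by loci that share probe sets with mitochondrial genes. It was defined after the data were seen. Of its 140 RefSeq genes, 20 have a probe set of their own here, and 15 of these are of the type that can bind related transcripts. Whether the readings come from the nuclear loci or from similar transcripts of the organelle was not tested. None of the 20 passed the limma test, 0 also at an unadjusted p under 0.05, and the median difference was -0.0092 (log2). The locus with the highest mean was AT2G07751, which read 2.38, 2.62 and 2.89 in the canopy, against 2.81, 2.62 and 2.44 in single plants.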
